A study of Mus musculus with 9 samples.

Results

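Transcripts of 9 genes that make, cut or clear amyloid-beta were followed in microglia of a mouse amyloid model: App, its paralogue Aplp2, the prion protein gene Prnp, the secretase genes Adam10, Bace1, Psen2 and Ncstn, and the peptidase genes Ide and Mme. They were picked by symbol, and each occurs once among the 18571 genes of the deposited table. RNA came from CD45-immunopanned cells of the cortex and hippocampus of C57BL6/j mice at 9 months of age, with 3 libraries per genotype. CD45 is carried by leukocytes in general, so blood-derived cells can be caught along with microglia. The genotypes were wild type (WT in the plots), APP/PS1, which carries the disease transgenes, and APP/PS1:Cx3cr1-CreER:Cx43-flox/flox, called the knockout here (Cx43 cKO in the plots). In the knockout a tamoxifen-inducible Cre recombinase under Cx3cr1 removes floxed Cx43, the connexin 43 gene Gja1, from cells that express Cx3cr1. The labels give tamoxifen by gavage at 8 months for all 3 genotypes, at 0.1 mg/g on 5 days. Neither control is labelled as carrying the Cre or the floxed allele, so Cre and deletion cannot be told apart. The stated question is what Cx43 in microglia does in Alzheimer's disease.

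Amyloid-beta is released from the App protein by successive cuts. Beta-secretase, encoded by Bace1, cuts first, and gamma-secretase, a membrane complex with a presenilin at its active site and nicastrin (Ncstn) as a further subunit, then frees the peptide, whereas alpha-secretase, mainly Adam10, cuts within the peptide sequence. Insulin-degrading enzyme (Ide) and neprilysin (Mme) digest the peptide, the prion protein binds its oligomers, and microglia are known in this setting mostly for taking it up and degrading it.

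Libraries held 18907681 to 19565354 estimated counts. Whether they stem from separate animals is not stated, so p-values measure only the spread between these libraries, which may be technical. Gja1 was at 31.6 to 35.1 CPM (estimated counts scaled to library size with TMM factors, the trimmed mean of M-values) in wild type, 37.0 to 42.4 in APP/PS1 and 25.3 to 28.1 in the knockout, so its transcripts were reduced but present (log2 change -0.56, SE 0.060, edgeR adjusted p 7.95e-09 for the knockout against APP/PS1). Cx3cr1 was at 2258.9 CPM in wild type, 2230.1 CPM in APP/PS1 and 1214 CPM in the knockout, so lower Cx3cr1 also goes with the knockout. Ddx3y, which is Y-linked, had at most 2.34 counts in knockout libraries and at least 4137 in the others. A difference in sex and the knockout therefore cannot be told apart, whichever chromosome a gene lies on. The 10 microglial markers summed to 23406 to 23483, 28653 to 28840.0 and 25381 to 25443 CPM in wild type, APP/PS1 and knockout, in this order here and below. The 11 monocyte and neutrophil markers summed to 2939 to 2964, 908 to 935 and 8458 to 8606 CPM, the 10 astrocyte markers to 474 to 482, 672 to 694 and 515 to 525 CPM, and the 10 neuron markers to 117 to 130.2, 136 to 154 and 124 to 130.4 CPM. The 8 oligodendrocyte markers summed to 2247 to 2314, 2311 to 2355 and 2200.1 to 2263 CPM, the 8 vessel markers to 692 to 708, 678 to 686 and 525 to 541 CPM, the 7 B cell markers to 25.2 to 27.5, 9.77 to 11.4 and 18.8 to 19.4 CPM, and the 6 erythroid markers to 1184 to 1239, 248 to 275 and 95.1 to 105 CPM, with no marker at 0 in all libraries. These sums weigh abundant markers most, and in some lists single markers went both ways, counted here as called at an edgeR adjusted p under 0.05. For APP/PS1 relative to wild type 7 were called higher and 3 lower of 10 microglial markers, 0 and 11 of 11 monocyte and neutrophil, 8 and 0 of 10 astrocyte, 5 and 1 of 10 neuron, 2 and 3 of 8 oligodendrocyte, 1 and 5 of 8 vessel, 0 and 4 of 5 B cell and 0 and 6 of 6 erythroid markers. For the knockout relative to APP/PS1 1 were called higher and 7 lower of 10 microglial markers, 11 and 0 of 11 monocyte and neutrophil, 0 and 9 of 10 astrocyte, 0 and 5 of 10 neuron, 0 and 4 of 8 oligodendrocyte, 0 and 6 of 8 vessel, 4 and 0 of 5 B cell and 1 and 5 of 6 erythroid markers. For the knockout relative to wild type 7 were called higher and 3 lower of 10 microglial markers, 9 and 2 of 11 monocyte and neutrophil, 4 and 4 of 10 astrocyte, 2 and 4 of 10 neuron, 0 and 2 of 8 oligodendrocyte, 0 and 8 of 8 vessel, 1 and 3 of 5 B cell and 0 and 6 of 6 erythroid markers. Over all tested genes 26.9% were called higher and 32% lower in the first of these comparisons. In the second these shares were 27.3% and 27.7%, and in the third 24.7% and 23%. In bulk RNA, fewer cells of a type and less RNA per cell cannot be told apart. The part of these cells in the Gja1 and Cx3cr1 differences and in the results that follow was not tested.

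The promoter windows of 4 genes are shown because their levels followed different patterns: Aplp2 rose in both transgenic groups, Ide in APP/PS1 but not in the knockout, App rose in the knockout, and Prnp differed between all groups and lends its promoter to the transgenes of some APP/PS1 lines. Each is the 250 bases before an annotated start in RefSeq on GRCm38.p6, 5′ to 3′ along the gene. Capitals mark matches on either strand. The motifs searched were GGGCGG, known as the GC box, then CCAAT, whose name is its sequence, then TATAAA, the core of the TATA box, then TGANTCA, bound by AP-1 factors, then GAGGAA, the core bound by PU.1, and lastly TCACGTG, an E-box of lysosomal genes.
Aplp2: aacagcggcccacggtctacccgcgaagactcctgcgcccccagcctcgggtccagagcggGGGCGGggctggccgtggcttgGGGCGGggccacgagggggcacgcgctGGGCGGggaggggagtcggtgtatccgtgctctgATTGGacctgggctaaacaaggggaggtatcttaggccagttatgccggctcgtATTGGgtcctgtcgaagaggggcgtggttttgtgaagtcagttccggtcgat
Ide: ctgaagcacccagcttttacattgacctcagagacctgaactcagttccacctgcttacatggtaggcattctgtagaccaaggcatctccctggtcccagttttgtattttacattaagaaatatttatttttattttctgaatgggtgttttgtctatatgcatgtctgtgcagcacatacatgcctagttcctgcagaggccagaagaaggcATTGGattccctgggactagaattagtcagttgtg
App: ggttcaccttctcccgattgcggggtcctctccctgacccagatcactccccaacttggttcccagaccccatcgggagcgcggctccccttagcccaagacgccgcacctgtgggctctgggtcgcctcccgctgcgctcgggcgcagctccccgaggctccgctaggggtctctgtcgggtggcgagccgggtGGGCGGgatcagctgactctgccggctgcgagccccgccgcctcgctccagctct
Prnp: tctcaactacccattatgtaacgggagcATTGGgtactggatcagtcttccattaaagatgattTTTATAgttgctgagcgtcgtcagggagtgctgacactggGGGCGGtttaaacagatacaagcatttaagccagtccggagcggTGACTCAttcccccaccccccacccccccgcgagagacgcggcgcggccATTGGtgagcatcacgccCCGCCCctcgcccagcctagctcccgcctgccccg

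The windows lie at chr9:31211849-31212098 (minus strand) for Aplp2, chr19:37334545-37334794 (minus) for Ide, chr16:85173708-85173957 (minus, within the annotated gene span) for App and chr2:131909678-131909927 (plus) for Prnp. The GC box letters occurred 3 times for Aplp2, 2 times for Prnp, 1 time for App and 0 times for Ide, and 32.7% of all 32851 windows held them. CCAAT occurred 2 times for Aplp2 and for Prnp and 1 time for Ide, against 33.8% of windows with it. Prnp also held 1 TATA box (12.4% of windows) and 1 AP-1 match (6.75%). The E-box (3.13% of windows) and the PU.1 core (23.3%) had no match in these 4. CpG pairs numbered 22 for Aplp2, 23 for App, 17 for Prnp and 0 for Ide, with a median of 6 over all windows. A window was found for 8 of the 9 genes. A match of letters is a description and not a binding site. The APP/PS1 line is not given in the sources used here.

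Compared per transcript length, in TPM, the length-scaled unit the authors deposited, App was the most abundant of the 9 genes in every genotype, at 358 ± 1.90 TPM in wild type, 285 ± 2.61 TPM in APP/PS1 and 375 ± 4.07 TPM in the knockout (SD, n = 3). In wild type Prnp (183 TPM), Aplp2 (151 TPM), Adam10 (136 TPM) and Ncstn (129 TPM) followed. Ide (20.9 TPM) and Psen2 (18.5 TPM) came next, then Bace1 (5.37 TPM) and Mme (0.237 TPM). No neighbours in this wild-type order overlapped between libraries. In APP/PS1 the order was the same except that Aplp2 (216 ± 4.90 TPM) stood above Prnp (171 ± 1.13 TPM), again with no overlap between neighbours. The knockout had Ncstn (140.5 TPM) above Adam10 (124 TPM), and there Aplp2 (247 TPM) overlapped Prnp (242 TPM), as Psen2 (20.0 TPM) did Ide (18.8 TPM).

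**Figure D1:**
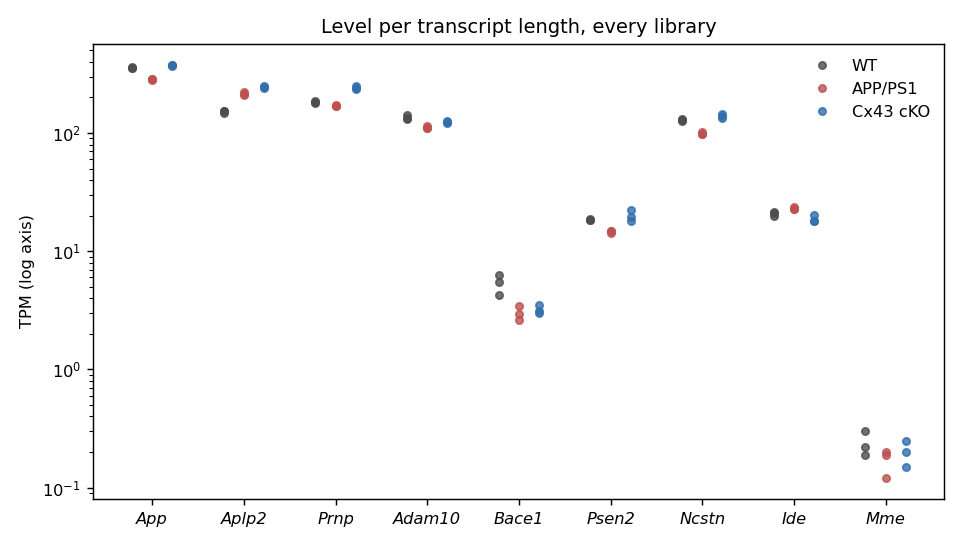
TPM of the 9 genes on a log axis, with points for single libraries by genotype. App is highest in all 3 genotypes (means of 358, 285 and 375 TPM from left to right) and Mme lowest (0.237, 0.17 and 0.2 TPM).

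Each gene was then compared with itself between genotypes in CPM, and all 9 passed the filter on low counts. A gene is called when its edgeR quasi-likelihood adjusted p, over all 14696 tested genes, is under 0.05. For APP/PS1 relative to wild type, 4 genes were called higher and 1 lower, where 59% of tested genes were called (26.9% higher, 32% lower). For the knockout relative to APP/PS1 these were 4 and 1, with 55% of tested genes called (27.3% higher, 27.7% lower). For the knockout relative to wild type they were 5 and 1, with 47.7% called (24.7% higher, 23% lower). Library ranges did not overlap for 6 of the 9 genes in each comparison, and for 63.5%, 59.7% and 54.6% of tested genes. The 9 genes were chosen by name, and nothing is read from these counts about the set. Their median log2 change was 0.060, 0.051 and 0.25, beside -0.036, -0.011 and -0.0086 over all tested genes. Any pair of these comparisons shares a group of libraries.

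**Figure D2:**
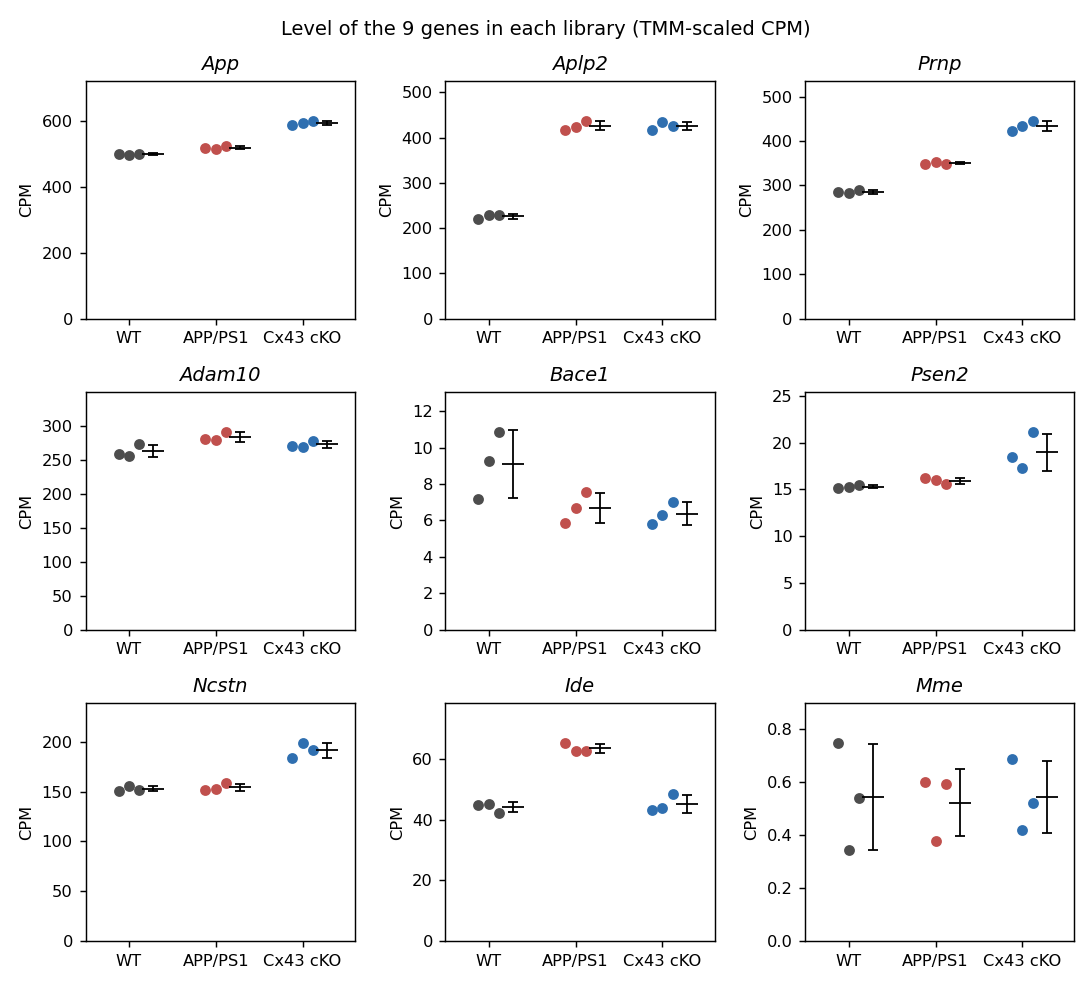
CPM of each gene in single libraries (points) with the mean and SD of each genotype (n = 3); axes start at 0. Aplp2 averages 226 CPM in WT and 426 CPM in both other groups, Ide is higher in APP/PS1 (63.7 CPM) than in WT (44.2 CPM) or Cx43 cKO (45.3 CPM), and Prnp, App and Ncstn are highest in Cx43 cKO.

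Aplp2 (chr9:31149557-31211848), whose protein is cut by the same secretases as App but lacks the amyloid-beta sequence, showed the largest change of the 9 genes relative to wild type. It was at 219.5, 229 and 229.9 CPM in the wild-type libraries, at 418, 424 and 437 CPM in APP/PS1, and at 417, 434 and 426 CPM in the knockout. All transgenic libraries lay above all wild-type libraries, and APP/PS1 and knockout overlapped. Aplp2 was 1.88-fold higher in APP/PS1 than in wild type (log2 change 0.91, SE 0.030, edgeR adjusted p 2.28e-19). The knockout was 1.88-fold above wild type (log2 change 0.91, SE 0.030, edgeR adjusted p 3.95e-19). Between knockout and APP/PS1 the log2 change was -0.0022 with a 95% interval of -0.060 to 0.056, and on TPM it was 0.19 and passed (limma adjusted p 0.000154), where the median of all genes was 0.14. The rise over wild type in APP/PS1 was called under every scaling tried, from 0.51 on TPM to 1.01 with length offsets.

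App (chr16:84952666-85175255), the precursor itself, changed less. It was at 501, 498 and 502 CPM in the wild-type libraries, at 518, 515 and 525 CPM in APP/PS1, and at 589, 595 and 602 CPM in the knockout. The genotypes did not overlap, and the knockout was highest. App was 1.15-fold higher in the knockout than in APP/PS1 (log2 change 0.20, SE 0.026, edgeR adjusted p 4.49e-07) and 1.19-fold higher than in wild type (log2 change 0.25, SE 0.026, edgeR adjusted p 9.72e-09). Correcting for GC content and length gave 0.12 for the first. The TPM scale gave 0.39 for the first and 0.066 for the second. These were all still past the threshold. For APP/PS1 relative to wild type it did not pass (log2 change 0.053, SE 0.026, edgeR adjusted p 0.0870), but it did in the fit blocked on library number (0.053, edgeR adjusted p 0.00202) and in the fit of these 6 libraries alone (0.088, edgeR adjusted p 0.00784). Without the block and over 9 libraries the value also depends on scaling: it was 0.073 with DESeq2 size factors, 0.15 with offsets for GC content and length, -0.084 by library totals and -0.33 on TPM, each past the threshold of its own test. The median of all tested genes was -0.17 by library totals and -0.35 on TPM. Relative to that median App was 0.089 higher with TMM, 0.089 higher by totals and 0.022 higher on TPM. How reads of transgene transcripts were assigned is not given in the sources used here, so App values in APP/PS1 and knockout, and the ratio to Aplp2, could include such reads.

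The ratio of App to Aplp2 counts within a library needs no scaling between libraries. It was 2.17 to 2.28 in wild type, 1.20 to 1.24 in APP/PS1 and 1.37 to 1.41 in the knockout, with no overlap between genotypes. Its log2 difference was -0.86 for APP/PS1 relative to wild type, 0.20 for knockout relative to APP/PS1 and -0.66 for knockout relative to wild type. Each had a two-sided exact permutation p of 0.1, the smallest that 3 libraries against 3 allow, and 0.2 after Benjamini-Hochberg adjustment over 12 such ratio tests. These tests, here and below, shuffle libraries freely and ignore the library numbers. With libraries paired by number the smallest exact p would be 0.25.

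Prnp (chr2:131909928-131938436) was higher in APP/PS1 than in wild type and higher still in the knockout. It was at 284, 282 and 289 CPM in the wild-type libraries, at 347, 352 and 349 CPM in APP/PS1, and at 423, 433 and 446 CPM in the knockout. No genotypes overlapped. The change was 1.23-fold for APP/PS1 relative to wild type (log2 change 0.29, SE 0.029, edgeR adjusted p 1.95e-09). Knockout libraries were 1.24-fold above APP/PS1 (log2 change 0.31, SE 0.029, edgeR adjusted p 6.34e-10) and 1.52-fold above wild type (log2 change 0.60, SE 0.029, edgeR adjusted p 1.04e-15). The first of these was 0.16 by library totals, and on TPM it changed sign (-0.098, limma adjusted p 0.00747), while relative to the median of all genes on that scale it was 0.25. With the APP/PS1 line not given, whether Prnp values in APP/PS1 and knockout include reads of transgene transcripts cannot be told here.

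Adam10 (chr9:70678944-70780229), the main alpha-secretase, differed little. It was at 259, 256 and 273 CPM in the wild-type libraries, at 280.0, 279 and 291 CPM in APP/PS1, and at 271, 269 and 278 CPM in the knockout. APP/PS1 did not overlap either other genotype, and knockout and wild type overlapped. It was higher in APP/PS1 than in wild type (log2 change 0.11, SE 0.032, edgeR adjusted p 0.00441). With length offsets this was 0.22. The call was lost by library totals (-0.028, edgeR adjusted p 0.438) and its sign turned on the TPM scale (-0.28, limma adjusted p 1.46e-05). Relative to the median of all genes it was 0.14 with TMM and 0.072 on TPM. Neither comparison with the knockout passed, at -0.056 relative to APP/PS1 and 0.053 relative to wild type (edgeR adjusted p 0.139 and 0.177). Blocked on library number, the knockout was called higher than wild type (0.053, edgeR adjusted p 0.0204). With the same block it was called lower than APP/PS1 (-0.056, edgeR adjusted p 0.0126), a comparison in which the numbers were not taken as pairs. Other scalings called both comparisons, in both directions. Relative to APP/PS1 the knockout was lower with length offsets (-0.11, edgeR adjusted p 0.00376) and higher on TPM (0.14, limma adjusted p 0.00392). Relative to wild type it was higher with DESeq2 size factors (0.078, edgeR adjusted p 0.0433), with length offsets (0.11, edgeR adjusted p 0.00623) and with GC offsets added to those (0.089, edgeR adjusted p 0.0103), and lower on TPM (-0.14, limma adjusted p 0.00429).

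Bace1 (chr9:45838545-45862484), the beta-secretase, was the 1 gene of the 9 called lower than wild type. Its reads were few, with 144, 188 and 222 estimated counts in wild type, 107, 124 and 140 in APP/PS1, and 110, 120 and 135 in the knockout. In CPM it was at 7.19, 9.26 and 10.9 CPM in the wild-type libraries, at 5.84, 6.67 and 7.54 CPM in APP/PS1, and at 5.83, 6.27 and 7.03 CPM in the knockout. Wild-type libraries spread most, overlapping APP/PS1 but not the knockout. Bace1 was lower in APP/PS1 (log2 change -0.45, SE 0.13, edgeR adjusted p 0.00703) and in the knockout (log2 change -0.51, SE 0.13, edgeR adjusted p 0.00332) than in wild type. Without wild-type library 3 the APP/PS1 call was lost (-0.30, edgeR adjusted p 0.0592), as it was with offsets for GC content and length (-0.27, edgeR adjusted p 0.0763). Blocked on library number, the APP/PS1 call held, both without these offsets (-0.44, edgeR adjusted p 0.000116) and with them (-0.27, edgeR adjusted p 0.0187). The knockout call held without that library (-0.37, edgeR adjusted p 0.0286). Knockout and APP/PS1 differed by -0.068 (95% interval -0.35 to 0.21), which did not pass.

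Set against each other within libraries, Adam10 counts were 25.2 to 36.1 times those of Bace1 in wild type, 38.7 to 47.9 times in APP/PS1 and 39.6 to 46.3 times in the knockout. Both transgenic genotypes lay above wild type without overlap (exact permutation p 0.1 for each, 0.2 adjusted), and they overlapped each other. In every genotype the ratio was highest in library 1 and lowest in library 3.

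The gamma-secretase genes Ncstn (chr1:172066013-172082789) and Psen2 (chr1:180227004-180263467), a presenilin, were highest in the knockout. Ncstn was at 151, 156 and 152 CPM in the wild-type libraries, at 152, 153 and 159 CPM in APP/PS1, and at 184, 199 and 191 CPM in the knockout. Its knockout libraries stood above the rest, and APP/PS1 and wild type overlapped. Ncstn was 1.24-fold higher in the knockout than in APP/PS1 (log2 change 0.31, SE 0.034, edgeR adjusted p 1.60e-08) and 1.25-fold higher than in wild type (log2 change 0.33, SE 0.034, edgeR adjusted p 8.52e-09, 0.13 on TPM). Psen2 was at 15.1, 15.3 and 15.4 CPM in the wild-type libraries, at 16.2, 16.0 and 15.6 CPM in APP/PS1, and at 18.5, 17.3 and 21.1 CPM in the knockout. No genotypes overlapped, with knockout library 3 highest. Psen2 was 1.19-fold higher in the knockout than in APP/PS1 (log2 change 0.25, SE 0.073, edgeR adjusted p 0.00483) and 1.24-fold higher than in wild type (log2 change 0.31, SE 0.073, edgeR adjusted p 0.000812). Leaving out knockout library 3 ended the former call (0.17, edgeR adjusted p 0.0665), and the TPM scale ended the latter (0.10, limma adjusted p 0.176).

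For APP/PS1 relative to wild type, neither Ncstn (log2 change 0.015, SE 0.035, edgeR adjusted p 0.736) nor Psen2 (log2 change 0.060, SE 0.075, edgeR adjusted p 0.514) passed. Scaling mattered for Ncstn, which was lower by library totals (-0.12, edgeR adjusted p 0.00256), lower again on the TPM scale (-0.37, limma adjusted p 1.39e-06) and higher with length offsets (0.085, edgeR adjusted p 0.0391) and with GC offsets added (0.088, edgeR adjusted p 0.0142). Psen2 was lower on TPM (-0.31, limma adjusted p 0.000801). The ratio of Psen2 to Ncstn counts overlapped between all genotypes, at 0.0978 to 0.101 in wild type, 0.0980 to 0.107 in APP/PS1 and 0.0868 to 0.110 in the knockout.

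Ide (chr19:37268743-37334544), a zinc peptidase that degrades insulin and amyloid-beta, was called higher in APP/PS1 than in wild type and lower in the knockout than in APP/PS1. It was at 44.9, 45.4 and 42.2 CPM in the wild-type libraries, at 65.5, 62.7 and 62.9 CPM in APP/PS1, and at 43.4, 43.9 and 48.7 CPM in the knockout. APP/PS1 libraries stood above all others, and knockout and wild type overlapped. Ide was 1.44-fold higher in APP/PS1 than in wild type (log2 change 0.53, SE 0.049, edgeR adjusted p 4.89e-10), and its change in the knockout relative to APP/PS1 was 0.712-fold (log2 change -0.49, SE 0.049, edgeR adjusted p 2.58e-09). Both calls held on TPM (0.13 and -0.28). Knockout and wild type differed by 0.037 (95% interval -0.062 to 0.14, edgeR adjusted p 0.577). On TPM that last value was -0.15 and passed (limma adjusted p 0.0310), with a median of all genes of -0.17 there.

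Mme (chr3:63295211-63383713), encoding neprilysin, was barely detected, with 7 to 15 estimated counts per library in wild type, 6.99 to 11 in APP/PS1 and 7.99 to 13 in the knockout. All genotypes overlapped, and no difference was detectable at this depth. The 95% intervals of its log2 change were -0.81 to 0.70 for APP/PS1 relative to wild type, -0.71 to 0.81 for knockout relative to APP/PS1 and -0.74 to 0.74 for knockout relative to wild type. Ide counts were 60.0 to 132 times those of Mme in wild type, 106 to 167 times in APP/PS1 and 63.0 to 105 times in the knockout (exact permutation p 0.3 for APP/PS1 relative to wild type and 0.1 for knockout relative to APP/PS1). By library number the ratio was higher in APP/PS1 than in wild type each time (109 and 60.0, 167 and 132, 106 and 78.8), which this test does not use.

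**Figure D3:**
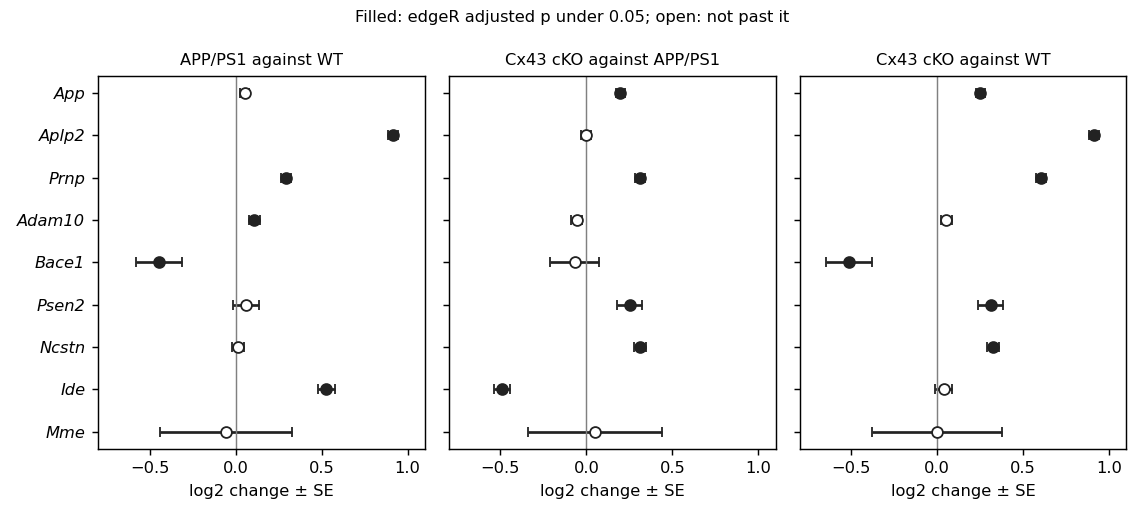
Log2 change with SE for the 9 genes in the 3 comparisons, from edgeR over 9 libraries; filled points have an adjusted p under 0.05. Aplp2 lies at 0.91 and 0.91 relative to WT, and Ide at 0.53 in APP/PS1 relative to WT and -0.49 in Cx43 cKO relative to APP/PS1.

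Log2 values and, for small changes, their signs depended on the scaling between libraries. On TPM the median of all tested genes was -0.35 for APP/PS1 relative to wild type, 0.14 for knockout relative to APP/PS1 and -0.17 for knockout relative to wild type. The share of called genes that were higher was, in this order, 45.7%, 49.6% and 51.9% with TMM, 29.5%, 54.8% and 30.4% by library totals, 30.2%, 54.4% and 32.0% on FPKM with a pseudocount of 1, and 14.7%, 75.3% and 19.8% on TPM. Taken relative to the median, Aplp2 in APP/PS1 was 0.95 with TMM and 0.86 on TPM, Ide 0.56 and 0.48, and Bace1 -0.41 and -0.31. For knockout relative to APP/PS1 App was 0.21 with TMM and 0.25 on TPM, Ncstn 0.32 and 0.36, Prnp 0.32 and 0.36, and Psen2 0.26 and 0.27. Before the median was taken off, the TPM values of these genes were 0.39, 0.50, 0.50 and 0.42.

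**Figure D4:**
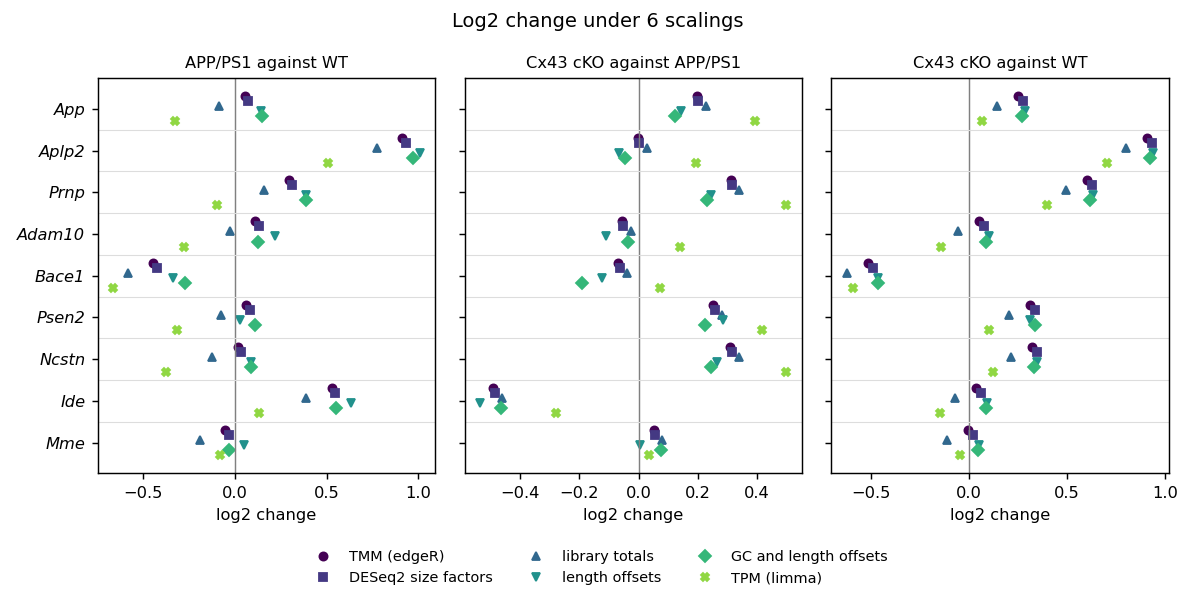
Log2 change of each gene in the 3 comparisons under the ways of scaling named in the key. For APP/PS1 relative to WT, App, Prnp, Adam10, Psen2 and Ncstn are above 0 with TMM and below 0 on TPM, whereas Aplp2 and Ide stay above 0 and Bace1 below.

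Of 63 further genes of the pathway, 60 were tested, with 23 higher and 20 lower in APP/PS1 than in wild type, 26 higher and 18 lower in the knockout than in APP/PS1, and 27 higher and 15 lower in the knockout than in wild type. Over all tested genes the shares called were 26.9% higher and 32% lower, then 27.3% higher and 27.7% lower, then 24.7% higher and 23% lower, in the same order. Among 9 precursor relatives and adaptors 3 were higher and 2 lower in APP/PS1 than in wild type, with a median log2 change of -0.039 beside -0.036 over all tested genes. In the knockout 3 were higher and 3 lower than in APP/PS1, and 4 higher and 3 lower than in wild type. Apbb2, whose protein binds the App tail, was at 27.8 CPM in wild type, 58.2 in APP/PS1 and 58.3 in the knockout (log2 change 1.06 in APP/PS1 relative to wild type). Itm2b, a furin-cut membrane protein, was at 1765 CPM in wild type, 2746 in APP/PS1 and 2384 in the knockout (log2 change 0.64, then -0.20 in the knockout relative to APP/PS1, a fall that was -0.11 with GC and length offsets and was lost on TPM at -0.0091). Aplp1, a neuronal paralogue of App, changed by -0.14 in APP/PS1 and -0.29 in the knockout relative to wild type, and Apba1 by -0.21 in APP/PS1 relative to wild type and 0.31 in the knockout relative to APP/PS1. With GC and length offsets the APP/PS1 calls of Aplp1 (-0.011) and Apba1 (-0.048) were lost, and the knockout value of Apba1 relative to APP/PS1 was 0.20. Apbb3 rose by 0.35 in the knockout relative to APP/PS1. Apba2 changed by -0.56 there and by -0.55 relative to wild type, calls that DESeq2 did not make (adjusted p 0.0504 and 0.0708), and the first was lost on TPM (-0.21), while without wild-type library 2 the second was lost in edgeR too (-0.43, adjusted p 0.0729).

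Among 8 further gamma-secretase genes 4 were called higher in APP/PS1 than in wild type and 7 higher in the knockout than in wild type, and between knockout and APP/PS1 3 were higher and 2 lower. Over all tested genes 26.9% were called higher in the first of these comparisons and 24.7% in the second, and 27.3% higher and 27.7% lower in the third. The list's median log2 changes were 0.070, 0.22 and 0.035, beside -0.036, -0.0086 and -0.011 over all tested genes. Psenen, the subunit that activates the assembled complex, was at 43.4 CPM in wild type, 85.5 in APP/PS1 and 52.5 in the knockout. Its log2 change was 0.98 in APP/PS1 relative to wild type and -0.70 in the knockout relative to APP/PS1 (edgeR adjusted p 2.49e-16 and 2.62e-13). Both calls held with length offsets, at less than these sizes (0.36 and -0.21), and with GC and length offsets (0.34 and -0.21). Rer1, a retrieval receptor of the early secretory pathway, rose by 0.51 in APP/PS1 relative to wild type. In the knockout relative to APP/PS1 it changed by -0.25. With length offsets these were 0.31 and -0.11. With GC and length offsets the rise in APP/PS1 was 0.23. The Rer1 call for the knockout relative to APP/PS1 was then lost (-0.052), as it was on TPM (-0.080). Psenen was 0.28 higher in the knockout than in wild type, a call lost on TPM (0.078, limma adjusted p 0.0964). Aph1b, a scaffold subunit, was 0.51 higher in the knockout than in APP/PS1. In APP/PS1 relative to wild type neither Ncstn nor Psen2 passed, whereas Psenen did.

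Among 14 alpha- and beta-secretase genes and partners 2 were higher and 8 lower in APP/PS1 than in wild type, and 8 higher and 2 lower in the knockout than in APP/PS1. In the knockout 2 were higher and 5 lower than in wild type, where 24.7% and 23% of tested genes were, with a median of -0.025 beside -0.0086. For the first 2 comparisons, which share the APP/PS1 libraries, the median log2 change was -0.10 and 0.11, beside -0.036 and -0.011 over all tested genes, of which 26.9% were called higher and 32% lower in the first, and 27.3% higher and 27.7% lower in the second. Tspan33, a tetraspanin partner of Adam10, was at 47.3 CPM in wild type, 30.7 in APP/PS1 and 41.5 in the knockout (log2 changes -0.62 in APP/PS1 relative to wild type and 0.44 in the knockout relative to APP/PS1). Rhbdf2, needed for maturation of the sheddase Adam17, was at 98.7 CPM in wild type, 73.8 in APP/PS1 and 96.0 in the knockout (-0.42 and 0.38 in the same comparisons, or -0.18 and 0.23 with GC and length offsets). Timp3, an inhibitor of such metalloproteases, was at 148 CPM in wild type, 122 in APP/PS1 and 78.2 in the knockout, a change of -0.64 in the knockout relative to APP/PS1 and -0.92 relative to wild type. Tspan17 rose by 0.45 in APP/PS1, by 0.26 with length offsets, but did not pass on TPM (0.092), and Tspan15 changed by -0.45 in the knockout relative to APP/PS1 but did not pass on TPM (-0.21). Relative to wild type the knockout had higher Adam9 (0.26) and Rtn3 (0.23), both lost on TPM, and lower Rhbdf1 (-0.40). Rtn3, a reticulon that binds Bace1, rose by 0.12 in APP/PS1 relative to wild type (0.19 with length offsets), with the other sign by library totals (-0.021) and on TPM (-0.28).

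Of 14 tested proteases that can degrade amyloid-beta, beside Ide and Mme, 5 were higher and 6 lower in APP/PS1 than in wild type, and 8 higher and 3 lower in the knockout than in APP/PS1. In the knockout 6 were higher and 4 lower than in wild type, where 24.7% and 23% of tested genes were, with a median of -0.034 beside -0.0086. For the first 2 comparisons, which share the APP/PS1 libraries, the median log2 change was -0.12 and 0.11, beside -0.036 and -0.011 over all tested genes, of which 26.9% were called higher and 32% lower in the first, and 27.3% higher and 27.7% lower in the second. The lysosomal proteases Ctsd and Ctsb rose by 1.14 and 0.92 on the log2 scale in APP/PS1. Ctsd was 1.26 higher in the knockout than in wild type. Mmp9, a metalloprotease abundant in neutrophils, was at 98.0 CPM in wild type, 16.8 in APP/PS1 and 321 in the knockout, the same order of groups as the summed monocyte and neutrophil markers, whose part in this change was not tested. Mmp14 changed by -0.54 in APP/PS1. In the knockout relative to APP/PS1, Mmp2 rose by 0.48, and Htra1 and Ace changed by -0.96 and -0.55. Relative to wild type, Htra1 and Plat changed by -0.86 and -0.61 in the knockout.

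Of 15 genes of precursor sorting and peptide uptake, 9 were higher and 4 lower in APP/PS1 than in wild type, and 4 higher and 8 lower in the knockout than in APP/PS1. In the knockout 8 were higher and 3 lower than in wild type, where 24.7% and 23% of tested genes were, with a median of 0.082 beside -0.0086. For the first 2 comparisons, which share the APP/PS1 libraries, the median log2 change was 0.20 and -0.099, beside -0.036 and -0.011 over all tested genes, of which 26.9% were called higher and 32% lower in the first, and 27.3% higher and 27.7% lower in the second. Sorl1, a sorting receptor that binds App, was at 141 CPM in wild type, 73.7 in APP/PS1 and 184 in the knockout (log2 changes -0.94 in APP/PS1 relative to wild type and 1.32 in the knockout relative to APP/PS1). Lrpap1, a chaperone of lipoprotein receptors, rose by 1.21 in APP/PS1 and 0.85 in the knockout relative to wild type. Sort1 changed by -0.29 in APP/PS1 (-0.16 with GC and length offsets). The retromer subunit gene Vps29 and the scavenger receptor gene Cd36 changed by -0.64 and -0.62 in the knockout relative to APP/PS1, and Cd36 and the lipid exporter gene Abca1 by -0.53 and -0.61 relative to wild type.

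**Figure D5:**
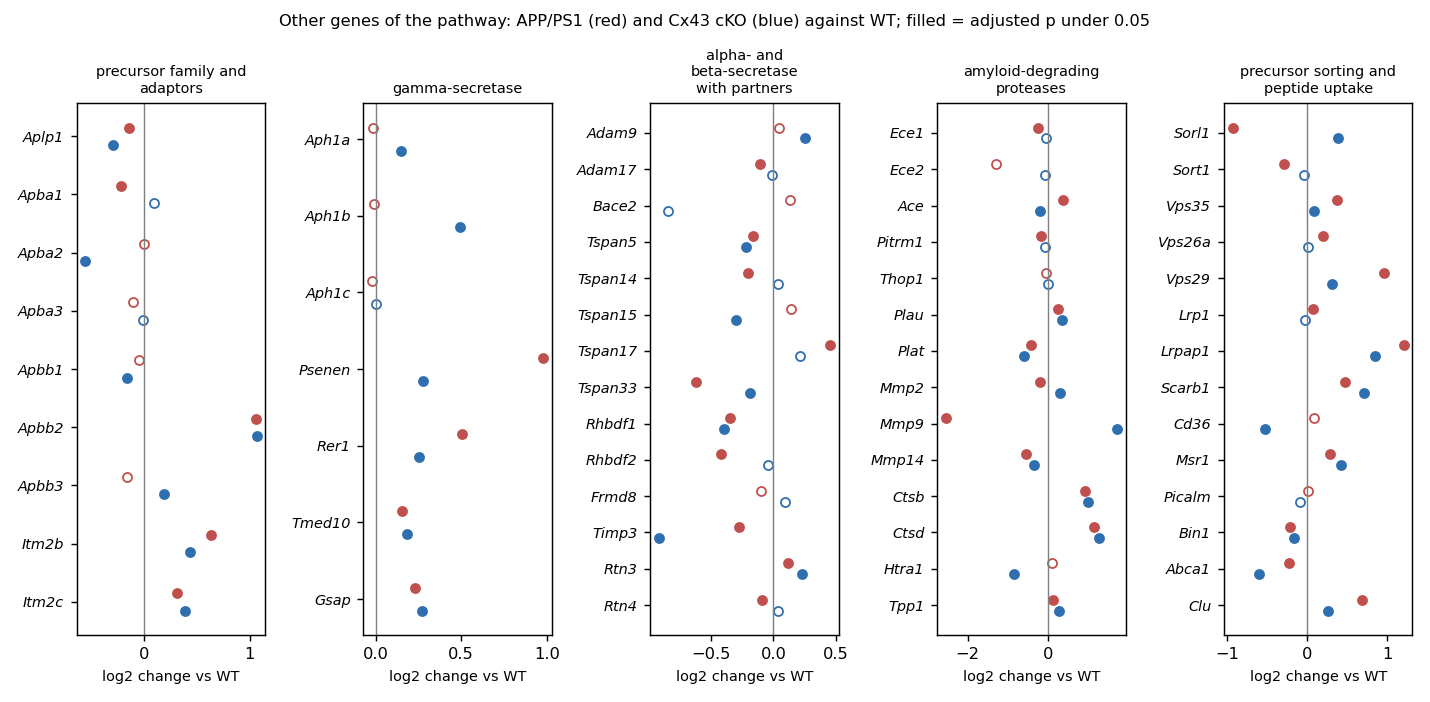
Log2 change of further pathway genes relative to WT, for APP/PS1 (red) and Cx43 cKO (blue), by list; filled points have an edgeR adjusted p under 0.05. Both comparisons use the same WT libraries. Sorl1 lies at -0.94 in APP/PS1 and 0.38 in Cx43 cKO, Psenen at 0.98 and 0.28, and Apbb2 near 1.06 in both.

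The genes with the most similar pattern were found by the Euclidean distance between log2 CPM values over the 9 libraries, centred on each gene's mean, among genes of at least 10 CPM; these are descriptions. For Aplp2 they were Ctsb (0.114) and Gusb (0.152), for App Ywhaz (0.0499) and Psmd11 (0.050), and for Prnp Cmas (0.125) and Nr4a3 (0.130). For Ide they were Rabggtb (0.116) and Acadm (0.143), and Rabggtb averaged 32.9 CPM in wild type, 49.2 CPM in APP/PS1 and 34.6 CPM in the knockout. Ncstn was nearest to Dgkz (0.0720) and Itpkb (0.0865) and Psen2 to Rpn2 (0.161) and Pde12 (0.172). Bace1 and Mme, with the fewest counts, had larger distances to their nearest genes, Fgfr1 (0.311) and Ppp1r15a (0.350) for Bace1 and Umad1 (0.333) and Rbak (0.352) for Mme.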

How the data were processed

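Per the labels' protocols, poly-A libraries were read as single ends of 50 nt. The submitters' processing notes name HISAT, Bowtie2 and DESeq2 with build GRCm38.p6, without roles. The counting program is not given in the sources used here. The deposited table holds estimated counts with decimals, FPKM values from the authors, TPM values deposited beside them, and a deposited normalised-count signal that was not used.

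Estimated counts were rounded and fitted in edgeR 4.0.16 (R 4.3.3; quasi-likelihood, robust, TMM, filterByExpr), with a mean for each genotype over all 9 libraries and Benjamini-Hochberg adjustment over 14696 genes. Intervals are the log2 change with normal 95% bounds from its SE. The members and lists were chosen with earlier results of these data known. Text names all 9 genes and from each list the 2 largest and 2 smallest called changes per comparison at 1 CPM or more, and the 2 genes nearest in pattern. Some genes that this rule names are not reported here, for a reason unrelated to their values, and they remain in the counts. Nrdc and Plg were not matched by symbol, and Mmel1 did not pass the filter. Gene length was derived from counts and FPKM, and GC content from GENCODE transcripts.

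Alternatives were other size factors, DESeq2 1.42.0, limma 3.58.1 (voom, and trend on log2 of FPKM or TPM plus a pseudocount of 1, or 0.1 for FPKM), other filters, the compared groups alone, length and GC offsets in 10 bins, a replicate block, and each library left out. Same-numbered libraries deviated together, with correlations of 0.14 to 0.28 between wild type and APP/PS1, 0.10 to 0.29 between wild type and knockout, and 0.055 to 0.23 between APP/PS1 and knockout. With a minimum of 0.1 for every pair, the numbers pair the libraries in the 2 comparisons with wild type and not in the last. The pairing comes from these correlations, since the labels give only the numbers, and it was judged by comparison after the calls were known. The fit was tested on simulated counts.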

Additional observations from a re-analysis of the deposited data

How the results depend on the processing

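No alternative moved a number of called genes by 1.5 times. Leaving out single libraries gave 8024 to 8763 called genes for APP/PS1 relative to wild type, 7345 to 8133 for knockout relative to APP/PS1 and 6291 to 7133 for knockout relative to wild type, and a replicate block gave 9319, 8851 and 7934. All 9 libraries correlated best with their own number, a hint from the data and not from the design. With the block App passed for APP/PS1 relative to wild type (0.053), and Adam10 for knockout relative to APP/PS1 (-0.056) and to wild type (0.053). The block alone changed no other call of the 9 genes, nor of the list genes in the comparisons for which the text picked them. Other comparisons of the list genes, and the genes nearest in pattern, were not compared with the block. Aplp2 for knockout relative to APP/PS1, not called with the block alone, was called with length offsets and block (-0.067, edgeR adjusted p 0.000710) and with GC and length offsets and block (-0.047, edgeR adjusted p 0.0161).

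Signs changed as follows (log2 changes), and the cause was not tested. For APP/PS1 relative to wild type, by library totals: App -0.084, Adam10 -0.028, Psen2 -0.077, Ncstn -0.12, Rtn3 -0.021. On FPKM with a pseudocount of 1: App -0.072, Adam10 -0.024, Psen2 -0.070, Ncstn -0.12, Rtn3 -0.026. With 0.1: App -0.073, Adam10 -0.025, Psen2 -0.077, Ncstn -0.12, Rtn3 -0.026. On TPM: App -0.33, Adam10 -0.28, Psen2 -0.31, Ncstn -0.37, Rtn3 -0.28, Prnp -0.098. Mme was 0.049 with length offsets and 0.054 with the block added. For knockout relative to APP/PS1, Aplp2 was 0.0023 with DESeq2 size factors and 0.0023 in its Wald test, 0.028 by totals, 0.029 and 0.029 on FPKM and 0.19 on TPM, where Adam10 was 0.14 and Bace1 0.074. For knockout relative to wild type, Adam10 and Ide were -0.055 and -0.071 by totals, -0.049 and -0.056 on FPKM with a pseudocount of 1, -0.050 and -0.062 with 0.1, and -0.14 and -0.15 on TPM. Mme there was 0.021 with DESeq2 size factors, 0.021 in the Wald test, 0.038 with voom, 0.00071 with the block, 0.055 with length offsets, 0.046 with GC and length offsets, and 0.059 and 0.048 with the block added to these.

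With single libraries left out, Ncstn ran from -0.0061 to 0.029 for APP/PS1 relative to wild type, Aplp2 from -0.017 to 0.015 and Bace1 from -0.15 to 0.026 for knockout relative to APP/PS1, and Ide from -0.018 to 0.068 for knockout relative to wild type. Mme ran from -0.29 to 0.24, from -0.15 to 0.20 and from -0.24 to 0.29 in the 3 comparisons. Log2 ratio differences, in the same order, ran from -0.87 to -0.84, 0.19 to 0.21 and -0.67 to -0.64 for App to Aplp2; 0.021 to 0.082, -0.14 to 0.030 and -0.098 to 0.076 for Psen2 to Ncstn; 0.43 to 0.69, -0.062 to 0.092 and 0.44 to 0.70 for Adam10 to Bace1; 0.29 to 0.86, -0.70 to -0.33 and -0.26 to 0.31 for Ide to Mme. On FPKM the last of the Ide to Mme differences was 0.076. Mme and Bace1 had the fewest counts of the 9 genes and the largest SEs of their log2 changes.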
